A study of Mus musculus with 12 samples.

Results

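Transcripts of 36 enzymes that build phospholipids, cardiolipin and sphingolipids were measured in the heart ventricles of 12 mice. The genes were chosen by symbol, by the lipid class their enzyme serves, and all 36 were found by Ensembl ID among 21959 genes in the count table. Of these, 33 had enough reads to be tested. The comparison was between 6 Vps13c-cKO mice, in which Vps13c had been knocked out, and 6 WT mice; all 12 were males of 7 weeks on a chow diet. The labels name neither the promoter or Cre line behind the knockout nor any allele that the WT mice carried. Vps13c encodes a bridge-like protein that carries phospholipids between membranes at organelle contacts. The comparison bears on whether transcripts for making those lipids differ when that carrier is depleted.

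Membrane phospholipids are made mainly at the endoplasmic reticulum. The Kennedy pathway joins activated choline or ethanolamine to diacylglycerol, giving phosphatidylcholine and phosphatidylethanolamine, and base exchange turns these into phosphatidylserine. A separate branch activates phosphatidic acid with CTP, giving CDP-diacylglycerol, from which phosphatidylinositol and, inside mitochondria, phosphatidylglycerol and cardiolipin are made. Cardiolipin is the signature lipid of the inner mitochondrial membrane, and the heart holds much of it. Sphingolipids start from serine and palmitoyl-CoA and pass through ceramide, which is turned into sphingomyelin or glycosphingolipids in the Golgi apparatus.

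Libraries held 12484523 to 15562942 gene counts, and the reads had no molecular identifiers. Levels are given as CPM, the share of a library's counts scaled by TMM library sizes. Vps13c was at 54.6 to 68.6 CPM in WT and 16.3 to 20.3 CPM in Vps13c-cKO, so all 12 mice matched their labels. Cardiomyocyte markers were abundant in all 12 libraries, with a summed level of 56299 to 61271 CPM in WT and 53906 to 58537 CPM in Vps13c-cKO, and 3 of 8 were lower in Vps13c-cKO (Tnnt2, Tnni3 and Myl2). Fibroblast markers were higher for 5 of 8, with sums of 1822 to 2076 CPM in WT and 2083 to 2323 CPM in Vps13c-cKO. Macrophage markers were higher for 4 of 9, with sums of 279 to 395 CPM and 343 to 414 CPM. Of endothelial markers 1 of 9 was lower, with sums of 960 to 1094 CPM and 957 to 1001 CPM, and of smooth muscle and pericyte markers 2 of 8 were lower and 1 higher, with sums of 1585 to 1892 CPM and 1524 to 1581 CPM. Blood cell markers summed to 282 to 453 CPM in WT and 238 to 735 CPM in Vps13c-cKO, Schwann cell markers to at least 13.0 CPM and adipocyte markers to at most 1.03 CPM. These counts of higher and lower markers are at an adjusted p under 0.05 by the edgeR test given below. At that threshold 5.65% of all tested genes were higher and 5.1% lower. Of all markers listed, 0 were at 0 in every library. The atrial markers Myl4, Myl7, Sln and Bmp10 summed to 68.8 CPM in WT mouse 4 and to at most 2.61 CPM in the other 11 libraries. These shifts stand beside every result that follows, and their part in those results was not tested. In whole tissue, a change in the number of cells of a type and a change in RNA per cell cannot be told apart.

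Among the lipid synthesis transcripts 1 rose, and the typical size of change was near that of all tested genes. Sgms1, which encodes sphingomyelin synthase 1, was 1.24-fold higher in Vps13c-cKO. Of the 33 tested genes 1 was higher and 0 were lower at an adjusted p under 0.05 (edgeR quasi-likelihood test, Benjamini-Hochberg adjusted over 12384 genes), or 3.03%, against 10.7% of all tested genes. DESeq2 gave the same counts, and limma-voom gave 2 higher, Sgms1 and Pcyt2, and 0 lower. Of all tested genes, 5.65% were higher and 5.1% lower. At an unadjusted p under 0.05 the count was 7 of 33, or 21.2%, against 23.8% of all tested genes. These 7 were Sgms1, Pcyt2, Chka and Pcyt1a with higher means in Vps13c-cKO, and Cds1, Cds2 and Lclat1 with lower means. The median log2 fold change, Vps13c-cKO minus WT, was 0.02 over the 33 genes and 2.75e-05 over all tested genes. The median size of change regardless of sign was 0.0882 on the log2 scale for the 33 genes and 0.0896 for all tested genes. The intervals were narrow for most genes that missed the threshold: of those 32, the 95% interval of the fold change lay within 1.25-fold in either direction for 27, within 1.5-fold for 31 and within 2-fold for all 32. Ptdss2, Cdipt and Mboat7 lie on chromosome 7, where 18.5% of tested genes changed in these hearts, and 0 of the 3 passed the threshold.

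**Figure D1:**
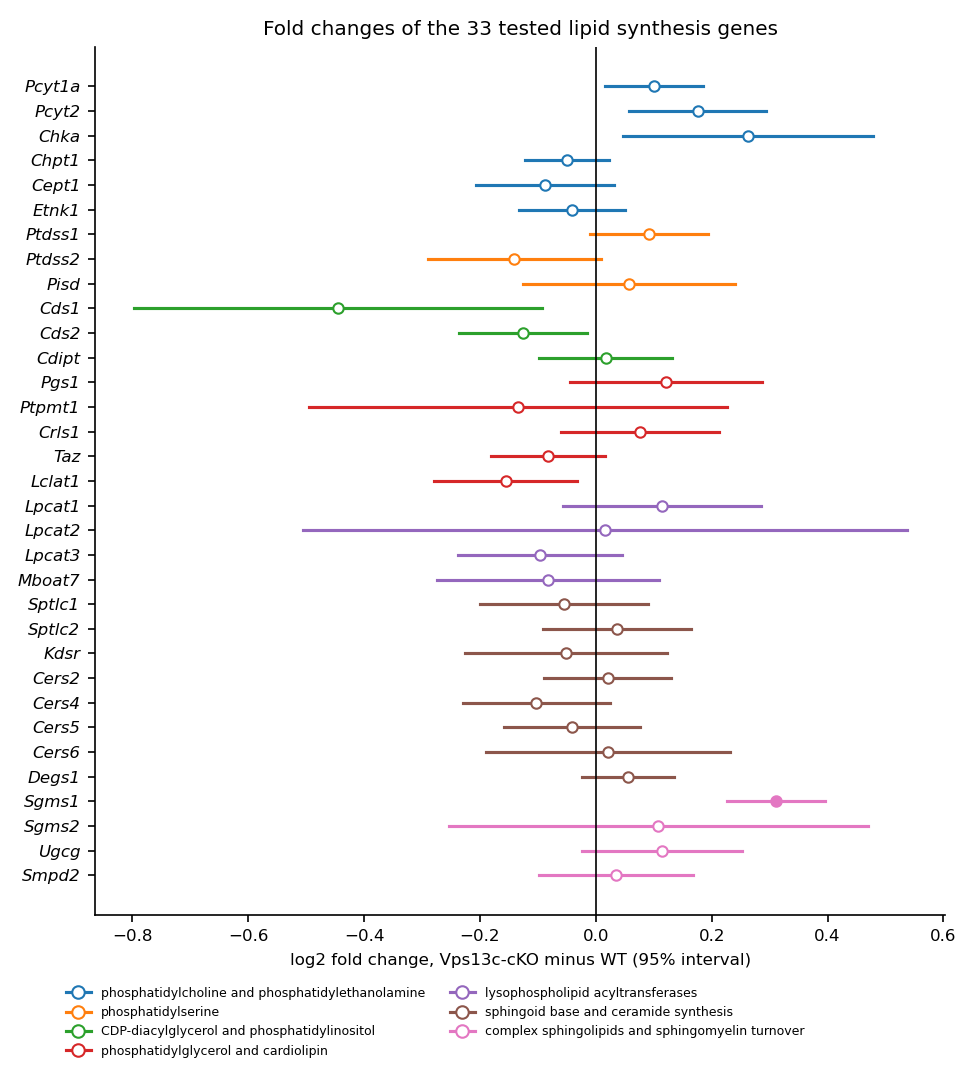
Log2 fold changes (Vps13c-cKO minus WT) of the 33 tested genes with 95% intervals, coloured by lipid class; a filled point passed an adjusted p under 0.05 and open points did not. Sgms1, at 0.31, is the filled point, and Cds1, Ptpmt1, Lpcat2 and Sgms2 have the widest intervals.

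The gene that rose was Sgms1. Sphingomyelin synthase 1 sits in the Golgi apparatus and moves the phosphocholine head of phosphatidylcholine onto ceramide, releasing diacylglycerol. Sgms1 (ENSMUSG00000040451, chromosome 19) was lowest at 62.6, with a median of 65.6 and a highest value of 68.7 CPM, in WT. In Vps13c-cKO the lowest was 74.7, the median 82.2 and the highest 84.9 CPM. All 6 Vps13c-cKO mice lay above all 6 WT mice, as in 2.75% of all tested genes. The means were 65.7 ± 2.37 and 81.5 ± 3.75 CPM (SD, n = 6 each), a log2 fold change of 0.31 ± 0.04 (SE, 95% interval 0.23 to 0.40; edgeR adjusted p = 2.64e-05). Leaving out any 1 mouse gave log2 fold changes of 0.30 to 0.34, and without WT mouse 4, the library with atrial markers, the value was 0.30. Exons of Sgms1 overlap no other gene of the count table in the GENCODE M21 annotation.

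The counts add up all transcripts of a gene, so the higher level of Sgms1 cannot be assigned to 1 of its transcription starts. RefSeq gives 4 of them on the build GRCm38.p6, from the most upstream (start 1) to the most downstream (start 4), and each window of 300 bases below lies mostly upstream of its start. They are shown because they are the annotated places where transcription of the changed gene can begin. Capitals mark GGGCGG, the GC box recognised by SP1-type factors, and CCAAT, the box recognised by NF-Y, on either strand.
Sgms1 start 1, chr19:32388463-32388762, minus strand: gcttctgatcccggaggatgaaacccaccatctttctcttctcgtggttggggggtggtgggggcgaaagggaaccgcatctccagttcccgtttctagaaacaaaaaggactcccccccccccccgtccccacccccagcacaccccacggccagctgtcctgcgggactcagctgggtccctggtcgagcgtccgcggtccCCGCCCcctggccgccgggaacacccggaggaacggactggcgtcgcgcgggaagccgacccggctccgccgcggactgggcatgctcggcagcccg
Sgms1 start 2, chr19:32388000-32388299, minus strand: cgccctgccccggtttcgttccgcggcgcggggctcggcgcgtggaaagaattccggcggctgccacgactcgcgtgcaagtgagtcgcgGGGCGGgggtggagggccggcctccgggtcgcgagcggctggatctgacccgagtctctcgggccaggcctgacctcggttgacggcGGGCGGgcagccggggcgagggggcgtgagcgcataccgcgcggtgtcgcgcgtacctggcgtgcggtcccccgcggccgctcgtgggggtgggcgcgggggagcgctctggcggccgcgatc
Sgms1 start 3, chr19:32349267-32349566, minus strand: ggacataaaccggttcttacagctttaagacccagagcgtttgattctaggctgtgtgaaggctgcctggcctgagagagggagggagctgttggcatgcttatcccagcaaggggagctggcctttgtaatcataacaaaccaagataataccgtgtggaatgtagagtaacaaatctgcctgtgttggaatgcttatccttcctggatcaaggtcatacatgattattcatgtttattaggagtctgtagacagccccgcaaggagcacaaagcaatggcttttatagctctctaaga
Sgms1 start 4, chr19:32210964-32211263, minus strand: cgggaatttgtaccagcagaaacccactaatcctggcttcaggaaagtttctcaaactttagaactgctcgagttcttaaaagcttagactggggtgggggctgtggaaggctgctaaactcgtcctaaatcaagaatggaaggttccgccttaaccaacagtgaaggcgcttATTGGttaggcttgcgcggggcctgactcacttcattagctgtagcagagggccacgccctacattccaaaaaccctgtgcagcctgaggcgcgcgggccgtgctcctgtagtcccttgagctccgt
Start 1 holds 1 GC box and start 2 holds 2, in windows with 69.3% and 77.3% G and C. Start 3 holds none of the motifs searched and start 4 holds 1 CCAAT box, in windows with 46% and 53% G and C. The E-box CACGTG was searched as well and is in 0 of the 4. Over all 32851 RefSeq windows of this length, 35.7% hold a GC box, 37.4% a CCAAT box and 7.15% this E-box. The motifs do not overlap one another in these windows.

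Among the lipid synthesis genes, the others whose enzymes use ceramide or break down sphingomyelin, Sgms2, Ugcg and Smpd2, did not pass the threshold. The ceramidase genes, whose enzymes also use ceramide, are on a neighbouring list given below, where Acer2 rose and Acer3 fell. Sgms2, the related synthase that also works at the plasma membrane, ranged from 1.82 to 3.36 CPM in WT (median 2.20) and from 2.09 to 3.28 CPM in Vps13c-cKO (median 2.44). The groups overlapped, and the log2 fold change was 0.11 ± 0.17 (SE, 95% interval -0.25 to 0.47; edgeR adjusted p = 0.772). That interval includes the value of Sgms1, so the data do not show that the synthases differ in response, and the difference between them was not tested. Ugcg, which adds glucose to ceramide as the first step towards glycosphingolipids, was at 25.9 ± 2.80 CPM in WT and 28.1 ± 1.56 CPM in Vps13c-cKO (SD, n = 6 each; log2 0.11, 95% interval -0.02 to 0.25). Smpd2, a neutral sphingomyelinase that turns sphingomyelin back into ceramide, was at 22.1 ± 1.65 and 22.7 ± 1.63 CPM. By GENCODE M21, 20.3% of its exon bases are shared with Mical1 on the opposite strand, so its level is uncertain by an unknown amount.

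**Figure D2:**
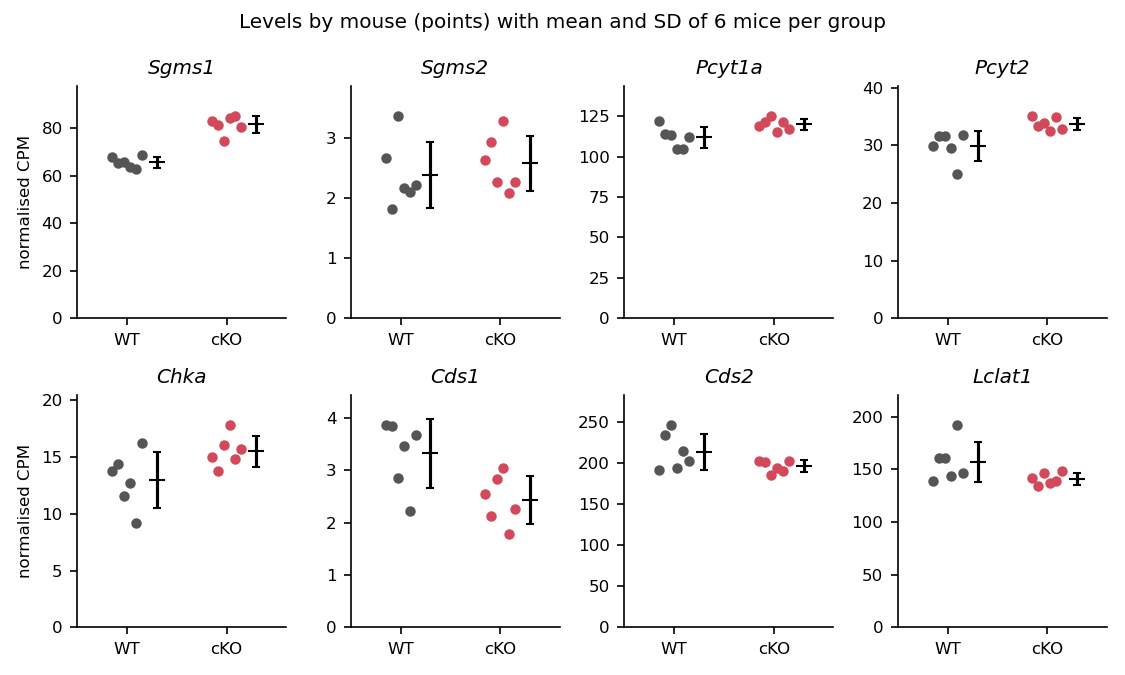
Normalised CPM by mouse (points; 6 WT in grey, 6 Vps13c-cKO in red) for 8 genes, with mean and SD beside the points and each axis starting at 0. Sgms1 and Pcyt2 are the genes in which every Vps13c-cKO mouse lies above every WT mouse, and the other 6 overlap.

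Genes that make ceramide lay close to the WT level, with 0 of 8 higher and 0 lower. At an unadjusted p under 0.05 the count was also 0 of 8, against 23.8% of all tested genes. The log2 fold changes of the 8 ran from -0.10 (Cers4) to 0.06 (Degs1). Sptlc1 and Sptlc2 encode the core of serine palmitoyltransferase, which condenses serine with palmitoyl-CoA in the committed step. Sptlc1 was at 19.1 ± 1.31 CPM in WT and 18.4 ± 1.72 CPM in Vps13c-cKO, and Sptlc2 at 22.5 ± 1.47 and 23.1 ± 1.64 CPM (SD, n = 6 each). Neither moved by more than its spread between mice. Kdsr, the reductase of the next step, was at 11.6 ± 1.26 and 11.2 ± 0.901 CPM. Ceramide synthases add the acyl chain, and each prefers its own chain lengths: Cers2 very long chains, Cers5 and Cers6 shorter ones. Cers2 was at 41.1 ± 2.56 and 41.6 ± 2.74 CPM, Cers4 at 44.4 ± 4.54 and 41.4 ± 2.62 CPM, and Cers5 at 25.0 ± 1.77 and 24.3 ± 0.965 CPM. Cers6 was lower in both groups, at 7.72 ± 0.585 and 7.85 ± 1.17 CPM. Degs1, the desaturase that turns dihydroceramide into ceramide, was among the steadiest genes, at 52.0 to 55.0 CPM in WT and 53.2 to 57.9 CPM in Vps13c-cKO. Its 95% interval, -0.02 to 0.13 on the log2 scale, leaves room for small differences.

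In the Kennedy pathway 0 of 6 tested genes passed the threshold, and 3 had higher and 3 lower means in Vps13c-cKO. At an unadjusted p under 0.05 the count was 3 of 6, all with higher means, against 23.8% of all tested genes. Pcyt2 encodes the CTP-dependent enzyme that activates ethanolamine and sets the pace of phosphatidylethanolamine synthesis. It ran from 25.0 to 31.9 CPM in WT (median 30.8) and from 32.5 to 35.1 CPM in Vps13c-cKO (median 33.6). The groups did not overlap, although the lowest WT mouse stood apart from the other 5. Its log2 fold change was 0.18 ± 0.06 (SE, 95% interval 0.06 to 0.29; edgeR adjusted p = 0.0509), just short of the threshold. It passed in 5 of 20 alternative analyses, at an adjusted p of 0.0455 with upper-quartile factors, 0.0378 with a minimum mean of 5 CPM, 0.0467 with limma-voom, 0.0477 without WT mouse 3 and 0.0453 without WT mouse 6. Over the 20, adjusted p ran from 0.0378 to 0.112, the last without WT mouse 5. With Sgms1 and Pcyt2, 2 of 33 genes had groups that did not overlap, against 4.93% of all tested genes; both were higher in Vps13c-cKO, as were 2.75% of all tested genes, while 2.18% were lower without overlap.

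Chka encodes choline kinase alpha, which phosphorylates choline on entry to the pathway. It ran from 9.17 to 16.2 CPM in WT (median 13.3) and from 13.7 to 17.8 CPM in Vps13c-cKO (median 15.4), and the groups overlapped (log2 0.26 ± 0.10 SE, edgeR adjusted p = 0.115). Without WT mouse 6, the highest of its group, the value was 0.33, and without WT mouse 5, the lowest, it was 0.176. Chka passed in 1 of 20 alternatives, the one without WT mouse 6, with adjusted p from 0.0377 to 0.244 over the 20. Pcyt1a, the rate-limiting enzyme of phosphatidylcholine synthesis, was at 112 ± 6.49 and 120 ± 3.42 CPM (± SD), a log2 fold change of 0.10 ± 0.04 (SE; edgeR adjusted p = 0.125). It passed in 1 of 20 alternatives, without WT mouse 1, its highest WT sample (0.13), with adjusted p from 0.0447 to 0.255 over the 20. The enzymes of the last step lay slightly the other way: Chpt1, the cholinephosphotransferase, was at 562 ± 27.6 and 543 ± 13.2 CPM, and Cept1, which makes both lipids, at 26.1 ± 1.41 and 24.5 ± 1.62 CPM. Both had overlapping groups, with adjusted p = 0.417 for Chpt1 and adjusted p = 0.381 for Cept1 by edgeR. Etnk1, an ethanolamine kinase, was at 65.0 ± 2.54 and 63.2 ± 3.74 CPM. By GENCODE M21, 24.7% of the exon bases of Cept1 are shared with Dennd2d on the opposite strand.

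Chkb, Etnk2 and Pemt had too few reads to be tested. Etnk2, a second ethanolamine kinase, had 0 to 19 counts per library and Pemt, which methylates phosphatidylethanolamine to phosphatidylcholine chiefly in liver, had 3 to 12. Chkb, the choline kinase whose loss causes a muscular dystrophy in mice, had 3 to 15. Without a filter on low counts their log2 fold changes were 1.14 ± 0.51 (SE) for Etnk2, 0.36 ± 0.39 for Pemt and -0.82 ± 0.37 for Chkb, with edgeR adjusted p = 0.202, 0.63 and 0.197. The count of Chkb needs care. In GENCODE M21, 50.7% of its exon bases and 81.4% of those of its neighbour Cpt1b, the muscle carnitine palmitoyltransferase, also belong to Gm44502, a gene model on the same strand that covers parts of both. Gm44502 had 0 counts in all 12 libraries, and Cpt1b had 77 to 137. The treatment of reads that fall in more than 1 gene model is not given in the sources used, so the level of Chkb cannot be read from this table.

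Phosphatidylserine genes showed 0 of 3 higher and 0 lower. At an unadjusted p under 0.05 the count was 0 of 3, against 23.8% of all tested genes. Ptdss1, which swaps serine for the choline of phosphatidylcholine, ran from 39.2 to 45.7 CPM in WT (median 42) and from 40.3 to 47.5 CPM in Vps13c-cKO (median 45.5). Its log2 fold change was 0.09 ± 0.05 (SE, 95% interval -0.01 to 0.19). Ptdss2, which uses phosphatidylethanolamine instead, leaned the other way, from 16.6 to 21.9 CPM in WT and from 15.5 to 18.6 CPM in Vps13c-cKO (log2 -0.14 ± 0.07, 95% interval -0.29 to 0.01). Pisd, which makes phosphatidylethanolamine from phosphatidylserine inside mitochondria, was at 9.53 ± 0.985 and 9.93 ± 0.905 CPM (SD, n = 6 each). Of its exon bases 20.1% belong also to Gm20671, a same-strand gene model with 0 counts in all libraries, so its level is uncertain.

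The CDP-diacylglycerol synthases had lower means in Vps13c-cKO, and neither passed the threshold. Both had an unadjusted p under 0.05, as did 23.8% of all tested genes. Cds2 was the abundant one, at 191 to 246 CPM in WT (median 209) and 186 to 203 CPM in Vps13c-cKO (median 197). The WT mice were spread more widely than the Vps13c-cKO mice, and the groups overlapped (log2 -0.13 ± 0.05 SE, edgeR adjusted p = 0.144). Cds1 ran from 2.23 to 3.85 CPM in WT (median 3.57) and from 1.79 to 3.04 CPM in Vps13c-cKO (median 2.40). Its log2 fold change, -0.45 ± 0.17 (SE, 95% interval -0.80 to -0.09; edgeR adjusted p = 0.101), was the most negative of the 33, on a low count. It passed in 1 of 20 alternatives, without WT mouse 5, the lowest of its group (-0.54), with adjusted p from 0.0348 to 0.204 over the 20. Cdipt, which makes phosphatidylinositol from CDP-diacylglycerol and inositol, was at 25.9 ± 1.72 and 26.2 ± 1.14 CPM (SD, n = 6 each).

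The genes that make and remodel cardiolipin showed 0 of 5 higher and 0 lower. At an unadjusted p under 0.05 the count was 1 of 5, against 23.8% of all tested genes. Pgs1, the committed enzyme, was at 11.3 ± 0.638 CPM in WT and 12.3 ± 1.30 CPM in Vps13c-cKO, and Crls1, the cardiolipin synthase, at 17.6 ± 1.05 and 18.5 ± 1.49 CPM (SD, n = 6 each). The phosphatase between them, Ptpmt1, was at 2.65 ± 0.560 and 2.41 ± 0.422 CPM, and 45% of its exon bases are shared with Kbtbd4 on the opposite strand. Its 95% interval, -0.49 to 0.23 on the log2 scale, was among the widest. Taz encodes tafazzin, the transacylase that gives cardiolipin its mature acyl chains and is mutated in Barth syndrome, a cardiomyopathy. Taz ran from 48.1 to 56.6 CPM in WT (median 50.5) and from 45.0 to 51.3 CPM in Vps13c-cKO (median 49.0), with overlapping groups (log2 -0.08 ± 0.05 SE, edgeR adjusted p = 0.302). Lclat1, a lysocardiolipin acyltransferase, ran from 139 to 192 CPM in WT (median 153) and from 134 to 148 CPM in Vps13c-cKO (median 140). WT mouse 5 was the highest at 192 CPM. The log2 fold change of Lclat1 was -0.16 ± 0.06 (SE, 95% interval -0.28 to -0.03; edgeR adjusted p = 0.104), and it passed in 1 of 20 alternatives. It was -0.19 with adjusted p = 0.042 without WT mouse 1, the lowest of its group, and -0.0900 with adjusted p = 0.246 without WT mouse 5.

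Lysophospholipid acyltransferases, which exchange the acyl chains of finished phospholipids, showed 0 of 4 higher and 0 lower. At an unadjusted p under 0.05 the count was 0 of 4, against 23.8% of all tested genes. Lpcat3, which loads polyunsaturated chains onto phosphatidylcholine, was at 28.9 ± 0.702 CPM in WT and 27.1 ± 3.41 CPM in Vps13c-cKO (SD, n = 6 each). Lpcat1 was nearly constant in WT, at 8.85 to 9.35 CPM, and ran from 7.90 to 10.9 CPM in Vps13c-cKO. For both, the Vps13c-cKO mice were more scattered than the WT mice, and their medians were 28.4 against 29.1 CPM for Lpcat3 and 10.2 against 9.14 CPM for Lpcat1. Lpcat2 was near the limit of counting, at 1.2 ± 0.441 and 1.21 ± 0.287 CPM, and its 95% interval of -0.51 to 0.54 on the log2 scale leaves its response undetermined. Mboat7, which places arachidonate on phosphatidylinositol, was at 12.4 ± 1.29 and 11.7 ± 1.56 CPM.

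Levels were compared between genes as CPM per kilobase of merged exon. In WT, Chpt1 led by a wide margin, at 67.5 CPM per kilobase (range 62.4 to 71.5), followed by Lclat1 at 32.1 (28.3 to 39.2), Cds2 at 23.4 (21 to 27), Degs1 at 20.7 (20.1 to 21.2) and Pcyt1a at 15.1 (14.1 to 16.4). The ranges of Chpt1 and Lclat1 did not overlap, while those of Cds2 and Degs1 did. Below them, the next 7 genes from Cers2 (11.2) to Cept1 (8.37) overlapped with their neighbours in the order. Sgms1 stood in the 15th place of 36, at 6.23 CPM per kilobase. Its range in WT, 5.94 to 6.51, overlapped that of Pcyt2 above it (5.76 to 7.34) and not that of Sptlc1 below it (4.96 to 5.91). In Vps13c-cKO the mean of Sgms1 was 7.73. At the bottom, Etnk2 and Pemt had 0.0628 and 0.199 CPM per kilobase; Chkb has no readable place in the order, because of the overlap given above. The order depends on the length used. Per kilobase of the median coding transcript, a measure added after the data were seen, Chpt1 still led (227), followed by Pcyt1a (36.6), Lclat1 (35.1), Cdipt (29.5), Taz (29.4), Cds2 (26.5) and Degs1 (26.2). Ptpmt1 has no value by that measure, and Chkb has no readable place in it either. Among the genes with a value Sgms1 stood in the 10th place, at 17.9.

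**Figure D3:**
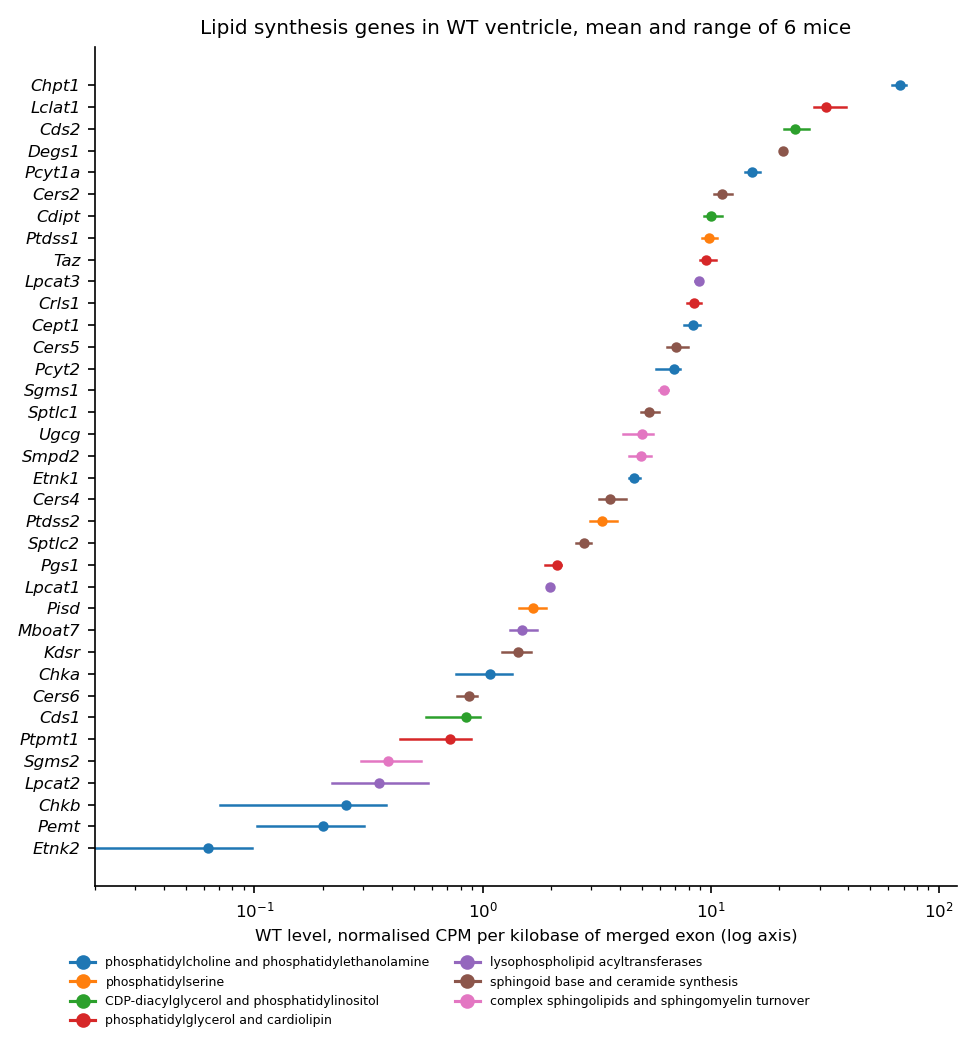
WT level of the 36 genes in CPM per kilobase of merged exon on a log axis, ordered by mean, with lines for the range of 6 mice and colours for lipid class. Chpt1, at 67.5, leads, and Etnk2, at 0.0628, is last; its line runs off the axis because its lowest mouse had 0 counts. The place of Chkb is uncertain, since it shares exon bases with Gm44502.

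Within enzyme families, 1 or 2 genes carried most of the per-length level, and the order of the genes was the same in both groups. Sgms1 held 94.2% ± 1.2 of the summed level of the sphingomyelin synthases in WT and 94.9% ± 0.798 in Vps13c-cKO (SD, n = 6 each), with Sgms2 holding the rest. Cds2 held 96.5% ± 0.847 and 97.2% ± 0.558 of the CDP-diacylglycerol synthases. Among the ceramide synthases listed, Cers2 held 49.2% ± 1.63 in WT and 50.4% ± 2.09 in Vps13c-cKO, Cers5 held 31.1% ± 1.98 and 30.6% ± 1.12, Cers4 held 15.9% ± 1.57 and 15.0% ± 0.951, and Cers6 held 3.84% ± 0.381 and 3.96% ± 0.675. Cers1, known mainly from brain and skeletal muscle, had 0 to 5 counts per library, but 42.5% of its exon bases are shared with the same-strand gene Gdf1, so its level cannot be read from this table either. Lpcat3 held 79.2% ± 0.971 and 76.6% ± 3.76 of the LPCAT genes, and Ptdss1 held 74.7% ± 2.49 and 77.6% ± 1.22 of the phosphatidylserine synthases. Sptlc1 held 65.8% ± 2.94 and 64.4% ± 2.70 of the level it shares with Sptlc2. Shares are given as a description, with no test. The ranges over mice overlapped between the groups in each of these families. Choline kinases are left out because of the overlap at Chkb.

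**Figure D4:**
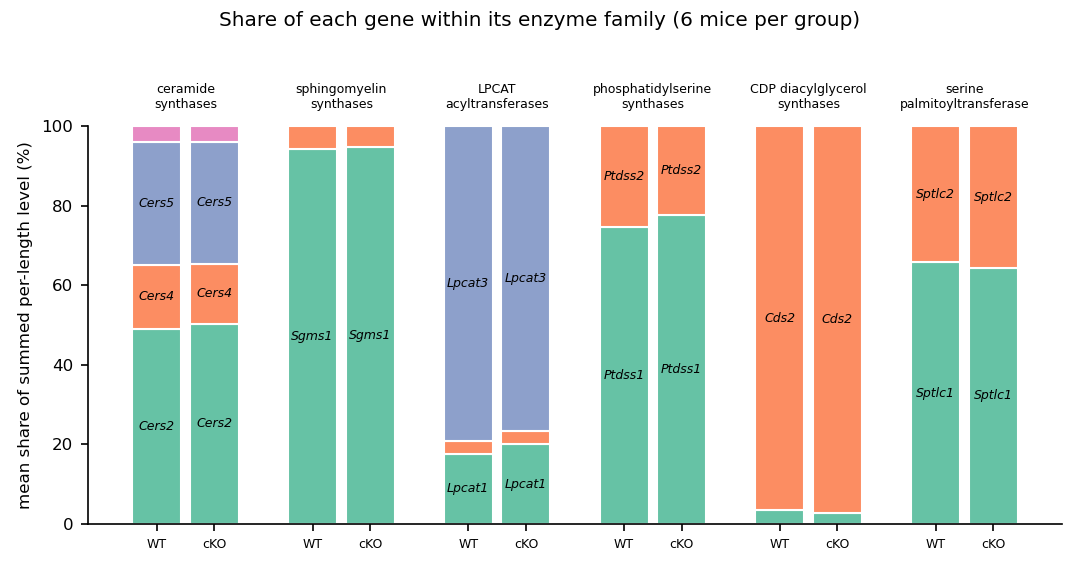
Mean share (percent) of each gene in the summed per-length level of its enzyme family in WT and Vps13c-cKO (cKO), 6 mice each, with unlabelled segments for Cers6, Sgms2, Lpcat2 and Cds1. Sgms1 holds 94.2% and 94.9% of its family, and Cds2 96.5% and 97.2%.

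Around these enzymes, 128 genes of neighbouring lipid pathways were listed by role. Of the 110 with enough reads, 8 rose and 9 fell, or 15.5%, against 10.7% of all tested genes, with a median log2 fold change of -0.01. Sphingolipid breakdown had 2 of 20 higher and 2 lower (median -0.04). Over all tested genes, set beside both sphingolipid lists in this paragraph, 5.65% were higher and 5.1% lower. Of the ceramidase genes listed, 1 rose and 1 fell. Acer2, a Golgi enzyme, had a mean of 25.8 ± 5.55 CPM in WT and rose to 39.7 ± 6.64 CPM in Vps13c-cKO (± SD, 6 mice each). Its log2 fold change was 0.63 ± 0.12 (SE), with edgeR adjusted p = 0.000905. Acer3, on chromosome 7, went down from 12.3 ± 1.45 CPM to 9.31 ± 0.785 CPM, a log2 fold change of -0.40 ± 0.09 (edgeR adjusted p = 0.00437). The acid ceramidase gene Asah1 was at 47.6 ± 2.29 and 46.2 ± 3.18 CPM and the neutral ceramidase gene Asah2 at 30.3 ± 1.67 and 27.9 ± 2.38 CPM, with edgeR adjusted p = 0.672 and 0.212, and Acer1 had 0 counts in all libraries. Sgpl1, the lyase that ends the sphingolipid pathway by cleaving sphingosine 1-phosphate, rose by 0.21 ± 0.06 on the log2 scale, with adjusted p = 0.0197, and 0.0501 without WT mouse 5 and 0.0556 without Vps13c-cKO mouse 3. Smpdl3a fell by 0.14 ± 0.04. The partners and regulators of sphingolipid synthesis had 0 of 12 higher and 0 lower (median 0.03). At an unadjusted p under 0.05 the count was 2 of 12, against 23.8% of all tested genes. Samd8, the relative of the sphingomyelin synthases that makes a ceramide analogue of phosphatidylethanolamine, was at 36.2 ± 1.39 and 33.4 ± 2.09 CPM (log2 -0.12 ± 0.05, edgeR adjusted p = 0.147). Col4a3bp, which encodes the ceramide carrier CERT that feeds the Golgi synthases, was at 74.2 ± 3.55 and 74.4 ± 4.18 CPM.

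The list named phosphatidic acid supply holds genes that make phosphatidic acid and also phosphatase genes that remove it, the Lpin and Plpp genes. In that list, 1 of 16 tested genes was higher and 2 were lower (median -0.01). Of all tested genes, set beside each list in this paragraph, 5.65% were higher and 5.1% lower. Lpin1, a phosphatidic acid phosphatase, fell from 279 ± 34.5 to 232 ± 9.78 CPM, and the acyltransferase gene Agpat3 from 172 ± 13.5 to 147 ± 14.2 CPM (± SD), with log2 fold changes of -0.27 ± 0.06 and -0.23 ± 0.06 (SE). Agpat1 rose by 0.17 ± 0.05. Of 13 genes that supply or scaffold cardiolipin or move phospholipids in mitochondria, 2 were lower and 0 higher (median -0.03). These were Hadha, the trifunctional protein subunit that also acylates monolysocardiolipin, at 1505 ± 66.5 and 1347 ± 58.4 CPM (log2 -0.16 ± 0.04), and the phospholipase gene Pnpla8 (log2 -0.12 ± 0.04). Tamm41, the mitochondrial CDP-diacylglycerol synthase, was at 5.04 ± 0.302 and 4.6 ± 0.936 CPM, with adjusted p = 0.588. Ether lipid genes had 0 of 9 higher and 0 lower, and 0 at an unadjusted p under 0.05, against 23.8% of all tested genes. DESeq2 and limma-voom also called 0 of the ether lipid genes and 0 of the sphingolipid partners. Selenoi, which finishes phosphatidylethanolamine in the Kennedy pathway, was at 26.8 ± 2.84 and 27.1 ± 1.88 CPM.

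Flippases and scramblases, which move phospholipids between membrane leaflets, had 3 of 17 higher and 1 lower (median -0.02). Of all tested genes, set beside this list and the next 2, 5.65% were higher and 5.1% lower. Atp11a had a mean of 129 ± 10.8 CPM in WT and 167 ± 3.66 CPM in Vps13c-cKO (± SD), a log2 rise of 0.37 ± 0.05 (SE; edgeR adjusted p = 1.65e-05). Atp8a2 was at 8.25 ± 1.09 CPM in WT and 13.0 ± 1.72 CPM in Vps13c-cKO, a log2 rise of 0.65 ± 0.10 with edgeR adjusted p = 0.000158. In both, every Vps13c-cKO mouse lay above every WT mouse, as in 2.75% of all tested genes. Atp9a rose by 0.19 ± 0.06 on the log2 scale, and the scramblase gene Ano6 fell by 0.24 ± 0.06. DESeq2 also called the flippase gene Atp8a1 lower, which had a log2 fold change of -0.17 ± 0.05 and adjusted p = 0.0509 with edgeR. In the list of other acyltransferases and phospholipases, 1 of 16 was higher and 1 lower (median -0.04): Pld1, a phospholipase D that releases phosphatidic acid from phosphatidylcholine, fell to 15.6 ± 1.84 CPM from a WT mean of 22.3 ± 3.26 CPM (log2 fold change -0.51 ± 0.09, edgeR adjusted p = 0.000766), and Abhd4 rose by 0.19 ± 0.05. Of 7 genes for choline and serine supply, 1 was higher and 1 lower (median -0.12): the serine synthesis gene Psat1 rose from 2.23 ± 0.187 to 3.29 ± 0.231 CPM and the choline transporter-like gene Slc44a2 fell from 86.7 ± 4.56 to 78.2 ± 5.05 CPM.

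Several of these smaller calls did not hold in every alternative. Agpat1 passed in 9 of 20 (adjusted p 0.027 to 0.113). It lost its call with DESeq2 (adjusted p = 0.0535), with no filter on low counts (0.0666), and without WT mouse 2, 3 or 6 or without Vps13c-cKO mouse 1, 2, 3, 4 or 6. Smpdl3a passed in 8 of 20 (adjusted p 0.0162 to 0.111) and lost its call with upper-quartile factors (0.0516) and without any WT mouse from 2 to 6 or without Vps13c-cKO mouse 1, 2, 3, 5 or 6. Slc44a2 passed in 11 of 20 (0.0149 to 0.104) and lost its call without WT mouse 2, 3, 4 or 6 or without Vps13c-cKO mouse 1, 2, 3 or 4. Atp9a passed in 10 of 20 (0.0173 to 0.12) and lost its call with no filter on low counts (0.0601) and without WT mouse 1, 3, 4, 5 or 6 or without Vps13c-cKO mouse 1, 2, 3 or 5. Pnpla8 passed in 15 of 20 (0.012 to 0.0827) and lost its call without WT mouse 3 or 6 or without Vps13c-cKO mouse 1, 3 or 5. Sgms1, Acer2, Acer3, Atp11a, Atp8a2, Pld1, Lpin1, Agpat3, Hadha, Abhd4 and Ano6 passed in all 20. Psat1 passed in all 19 that tested it.

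**Figure D5:**
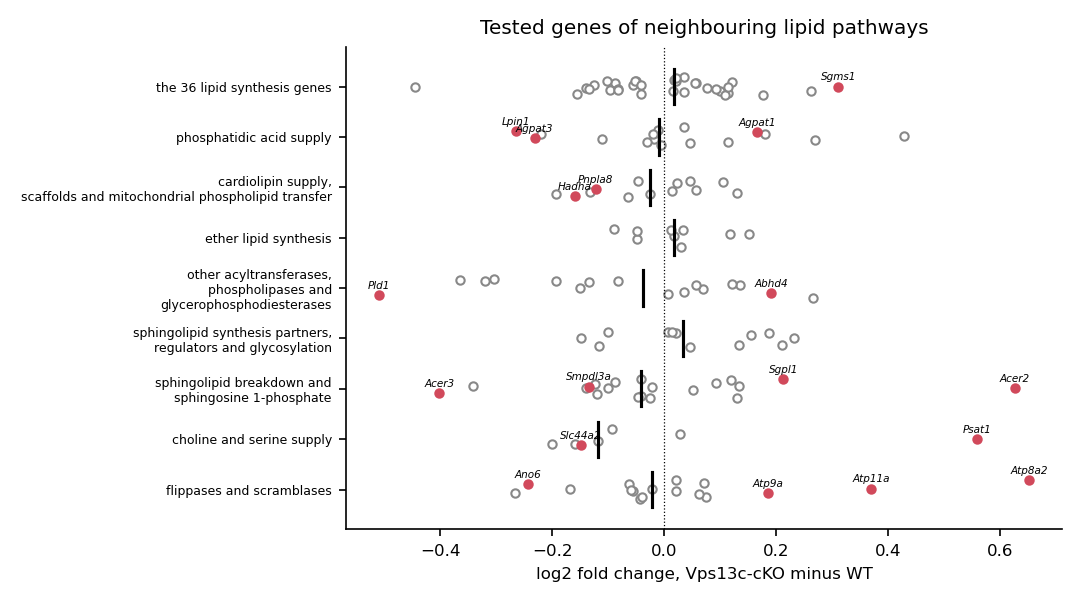
Log2 fold changes (Vps13c-cKO minus WT) of tested genes in the 36-gene set and in 8 lists of neighbouring lipid pathways; red points passed an adjusted p under 0.05 and are named, open points did not, black bars are medians, and vertical scatter within a list has no meaning. Medians lie between -0.12 and 0.03, and Acer2 and Atp8a2 lie furthest to the right.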

How the data were processed

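Poly-A RNA from ventricles of 6 WT and 6 Vps13c-cKO mice was sequenced; replicate numbers and groups come from the sample titles. The authors deposited raw read counts for each gene (whole numbers, per the file headers). Per the submitters' processing notes, the tools were HTSeq 0.9.1, HISAT2 2.1.0 and fastp 0.22.0 and the build GRCm39. The sources used here give no annotation release or strand setting. Whether reads from a gene and an overlapping gene on the other strand were kept apart is thus not known. Of the 36 genes, 11 overlap such a gene of the table. Of 21959 gene IDs, 21851 had a name in GENCODE M21 (GRCm38), used for names, chromosomes, merged exon lengths and overlaps. Promoter sequences are RefSeq's on GRCm38.p6. No sample column went unused (0 columns).

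The filter filterByExpr left 12384 genes, holding 99.9% of counts. The main test was edgeR's quasi-likelihood F test (version 4.0.16 in R 4.3.3, TMM factors), with Benjamini-Hochberg adjustment over these genes and a threshold of 0.05. CPM and fold changes were computed here, and intervals use the test's moderated degrees of freedom. The script was tested on simulated data. Chi-square values per gene between replicates, near 1 for copies of a library, were 3.11 to 5.62. The 20 alternatives changed the test (limma-voom of limma 3.58.1, DESeq2 1.42.0), the scaling (upper-quartile or DESeq2 factors, mitochondrially encoded genes removed), the filter (none, or at least 5 CPM on average) or the design (a replicate block, each mouse left out). The rule for names took all 36 genes, Vps13c, every gene called on the pathway lists, and Samd8, Tamm41, Selenoi, Col4a3bp and Cers1. The genes, lists and tests were chosen with earlier results of these data known. Cpt1b, Gm44502, Gm20671 and Gdf1 are named because they overlap or neighbour a listed gene, and Asah1, Asah2, Acer1 and Atp8a1 were added after their values were seen.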

Additional observations from a re-analysis of the deposited data

Results flagged for a closer look

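A sample far from the other 5 of its group was looked for in 132 sets of 6 values (levels of named genes, marker sums, depth), and 12 were found; chance alone marks about 1 in 20 such sets. Among the lipid synthesis genes, Pcyt2 was at 25.0 CPM in WT mouse 5 against 29.5 to 31.9 CPM in the other 5. Etnk1 was at 70.2 CPM in Vps13c-cKO mouse 4 against 59.5 to 63.2 CPM, and Ptdss1 at 40.3 CPM in Vps13c-cKO mouse 1 against 45.0 to 47.5 CPM. Cdipt was at 29.1 CPM in WT mouse 4 against 24.1 to 25.9 CPM, and Pgs1 at 10.04 CPM in WT mouse 6 against 11.3 to 11.7 CPM. Lpcat1 was at 7.90 CPM in Vps13c-cKO mouse 5 against 9.89 to 10.9 CPM, and Lpcat2 at 0.640 CPM in Vps13c-cKO mouse 4 against 1.19 to 1.41 CPM.

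In the neighbouring lists, Selenoi was at 23.5 CPM in Vps13c-cKO mouse 4 against 26.9 to 28.8 CPM, and Pld1 at 28.4 CPM in WT mouse 6 against 18.5 to 22 CPM. Col4a3bp was at 67.1 CPM in WT mouse 5 against 74.6 to 76.7 CPM, and Atp9a at 59.8 CPM in Vps13c-cKO mouse 1 against 47.5 to 51.7 CPM. The summed atrial markers were at 68.8 CPM in WT mouse 4 against 0.509 to 1.46 CPM in the other WT mice.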

How the results depend on the processing

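The count of lipid synthesis genes higher in Vps13c-cKO was 2 instead of 1 with upper-quartile factors, with a minimum mean of 5 CPM and with limma-voom, the addition being Pcyt2. Leaving out 1 mouse gave 1 to 3 higher and 0 to 1 lower: Pcyt2 was added without WT mouse 3, Pcyt2 and Chka without WT mouse 6, Pcyt1a and Lclat1 without WT mouse 1, and Cds1 without WT mouse 5. On the neighbouring lists, leaving out 1 mouse gave 5 to 8 higher genes, the lowest without Vps13c-cKO mouse 3. Sgms1 passed in all 20 alternatives, with log2 fold changes of 0.30 to 0.34. Of the 36 genes, 4 near no change turned sign in some of the sets that leave out a mouse, with log2 fold changes of -0.0871 to 0.215 for Lpcat2, -0.0374 to 0.0721 for Cers6, -0.00416 to 0.0528 for Cdipt and -0.00383 to 0.0480 for Cers2. The cause was not tested.

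With the replicate number as a block, 687 genes were higher and 625 lower over all genes, 1 lipid synthesis gene was higher and 0 lower, and Agpat1, Smpdl3a and Slc44a2 of the neighbouring lists lost their calls (adjusted p 0.0743, 0.0767 and 0.0607). The counts gave little sign that the numbers pair the mice. Same-numbered mice had correlations of -0.04 to 0.06, over 0.1 in 0 of 6 pairs, and in 1 pair both mice correlated best with each other. Low correlations cannot show that the mice were unmatched. Family shares by median coding transcript length, added after the data were seen, put Sgms1 at 97.8% in WT and 98% in Vps13c-cKO, and kept the order within each family shown. Sgms2, Cds1, Lpcat2 and Ptpmt1 have few reads, which widens their intervals.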
